A study of Homo sapiens with 6 samples.

Results

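The 10 genes described here mark the epithelial and the mesenchymal state of a carcinoma cell. The rule names them and uses no value of these data, though they were picked with earlier results known, as 2 epithelial surface genes (CDH1 and EPCAM), 3 mesenchymal genes (CDH2, VIM and FN1) and 5 transcription factors of the epithelial-mesenchymal transition (SNAI1, SNAI2, ZEB1, ZEB2 and TWIST1). All 10 were found by Ensembl identifier among the 20461 protein-coding genes of the deposited RNA-seq table. The libraries were labelled PANC1, a human pancreatic ductal carcinoma line, and the study set cells given gemcitabine, a nucleoside analog that blocks DNA synthesis, against cells given its vehicle. The vehicle group had 0.1% DMSO and the gemcitabine group 50 nM gemcitabine, each for 48 h, with 2 RNA-seq libraries a group and 1 DNaseI-seq library a group. All 6 libraries came from 1 cell line, so the replicate error below is that between cultures of one line.

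In an epithelial cell, E-cadherin (CDH1) holds neighbouring cells together at adherens junctions, and EPCAM is a second adhesion protein of the same surfaces. In the transition, zinc finger repressors of the SNAI and ZEB families bind E-box motifs in epithelial promoters, the basic helix-loop-helix factor TWIST1 acts beside them, and the cell turns to N-cadherin (CDH2), the intermediate filament vimentin (VIM) and the matrix protein fibronectin (FN1). Pancreatic carcinoma lines span a range between these states, and poorly differentiated lines carry little E-cadherin.

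The RNA-seq libraries held 13194535 to 15766232 fragments, and 3 fragments, the floor used here, equalled 0.190 to 0.227 CPM, the fragments scaled to the size of the library. A check of the line went against the label. CDKN2A, a cell cycle inhibitor that PANC1 is known to lack, was counted at 6219 and 6052 fragments in vehicle and at 5497 and 5106 in gemcitabine, so the cells are called cells labelled PANC1 here, and what this means for the values below was not tested. Of the 4 keratins that mark carcinoma cells of glandular origin, KRT7, KRT8 and KRT18 each had at least 5963 fragments in every library. KRT19 had only 45 to 94. Of 4 leukocyte markers none had over 9 fragments in a library, and the endothelial markers CDH5 and VWF had at most 3 and 34. Of 5 fibroblast markers PDGFRA was at 0 in 3 libraries and at 1 fragment in the other. DCN had 24 to 39 fragments, LUM 67 to 116, FAP 150 to 296 and COL3A1 31880 to 39067. The replicates of the gemcitabine group differed more from each other (a mean chi-square of 5.16 per gene over 14144 genes) than those of the vehicle group (2.17 over 13861 genes), and no pair was closer than counting error.

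Read per length, as FPKM (fragments scaled to transcript length in kb and to library size, as the authors' program Cuffdiff estimated it), the 10 genes spanned a wide range. It is not the counts divided by 1 fixed length. By its mean in vehicle VIM stood above 98.2% of the 14854 genes with 10 or more fragments over the 4 libraries. CDH1 stood above 11.5% of them. In vehicle the mean FPKM was 417 ± 44.3 (SD, n = 2) for VIM, 46.0 ± 1.11 for FN1 and 35.3 ± 1.19 for CDH2. The 5 transcription factors lay below these, at 15.1 ± 2.98 FPKM for SNAI1, 11.6 ± 0.317 for TWIST1, 9.29 ± 2.29 for ZEB1, 6.63 ± 0.0377 for ZEB2 and 3.66 ± 1.06 for SNAI2. EPCAM stood at 3.58 ± 1.01 FPKM and CDH1 at 0.209 ± 0.0365 FPKM. All 3 mesenchymal genes thus had higher levels than any of the factors, and the 2 epithelial genes stood last. In this order of vehicle levels the libraries of neighbouring genes overlapped only for SNAI2 and EPCAM.

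In the gemcitabine libraries the order on the FPKM scale kept VIM (452 ± 33.9, SD, n = 2), FN1 (86.1 ± 5.72) and CDH2 (30.4 ± 1.37) at the top and EPCAM (2.42 ± 0.469) and CDH1 (0.564 ± 0.291) at the bottom. Between them 4 factors took another rank. TWIST1 (12.1 ± 2.53 FPKM) stood above SNAI1 (10.5 ± 0.164), and SNAI2 (6.49 ± 0.470) above ZEB2 (5.53 ± 1.31). Each of these exchanged neighbours overlapped in the gemcitabine libraries, as did SNAI1 and ZEB1 (9.73 ± 2.27), so their order there is within the spread between libraries.

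**Figure D1:**
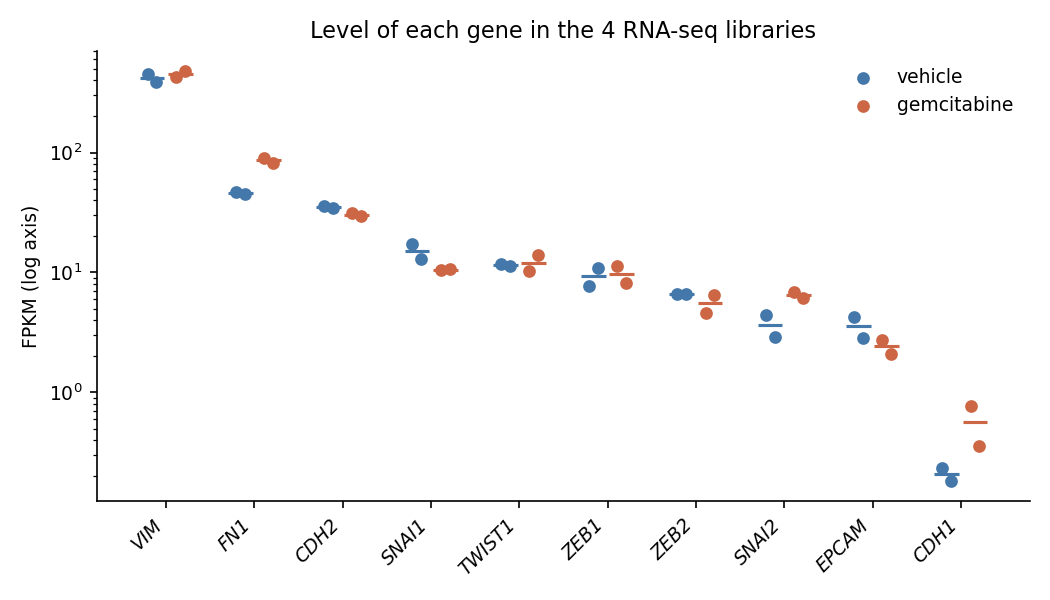
Level of each of the 10 genes in FPKM on a log axis, ordered by the vehicle mean. Points are the 2 libraries of each group (blue vehicle, orange gemcitabine) and bars their means. The genes run from VIM (417 FPKM in vehicle) to CDH1 (0.209 FPKM), and the 2 groups stand clearly apart for FN1.

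Whether gemcitabine moved these genes was tested on the fragment counts of the 14854 genes whose 4 libraries summed to 10 fragments or more, and all 10 genes passed that minimum. At an adjusted p under 0.05 (edgeR's quasi-likelihood test, Benjamini-Hochberg over all tested genes), 5 of the 10 genes changed, FN1 and SNAI2 upward and CDH2, SNAI1 and ZEB2 downward. Over all tested genes 38.5% changed, 18.5% upward and 20% downward, so the count of 5 in 10 is near the background. With the study's further criteria (fold over 1.5, mean FPKM of at least 0.1 in 1 condition and a difference in mean FPKM of at least 1), 3 of the 10 were called, FN1 and SNAI2 higher and SNAI1 lower, against 10.1% of all genes (5.69% higher, 4.42% lower). The CPM of the groups, after scaling by the trimmed mean of M values (TMM), did not overlap for 9 of the 10 genes, against 69.7% of all tested genes, though for TWIST1 the gap was in the fourth digit. Their median on the log2 scale was -0.25, beside 0.0069 for all tested genes. Scaled by library totals in place of TMM the medians were -0.14 and 0.12, that is, the whole table shifts upward by over 0.1 under that scaling, and the same number of the 10 rose and fell. The FPKM table gave fewer calls. With limma on log2(FPKM + 1), FN1 passed (0.89, adjusted p = 0.048), whereas CDH2 (-0.21, adjusted p = 0.167), SNAI1 (-0.48, 0.165), SNAI2 (0.70, 0.128) and ZEB2 (-0.24, 0.451) kept their direction without passing. In bulk libraries, fewer cells of a kind and less RNA per cell cannot be told apart.

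**Figure D2:**
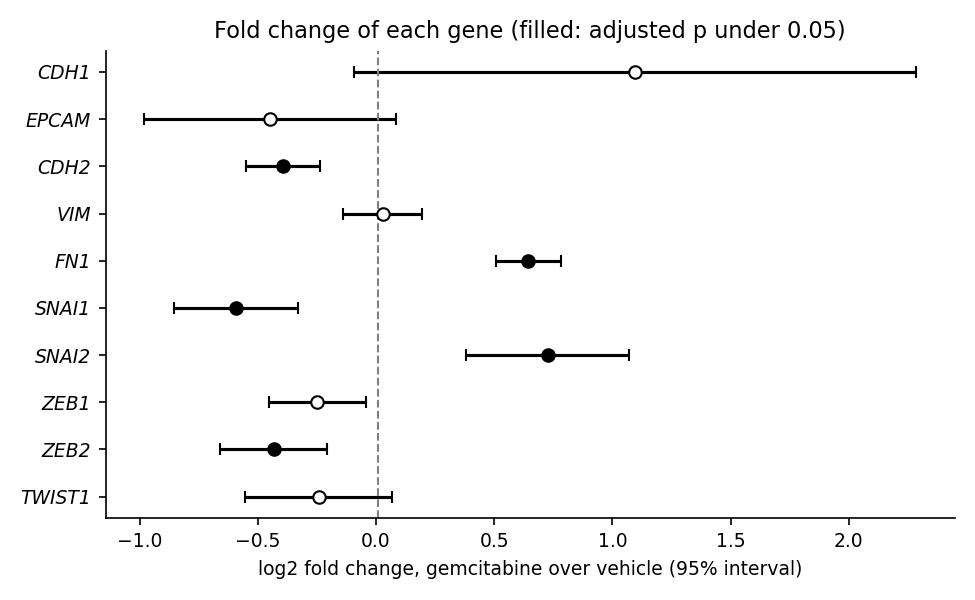
The log2 fold change of each gene, gemcitabine over vehicle, with its 95% interval from edgeR's quasi-likelihood fit on 2 libraries a group. Filled points passed an adjusted p of 0.05, and the dashed line is the median of all 14854 tested genes (0.0069). FN1 (0.64) and SNAI2 (0.73) lie to the right, CDH2 (-0.39), SNAI1 (-0.59) and ZEB2 (-0.43) to the left.

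**Figure D3:**
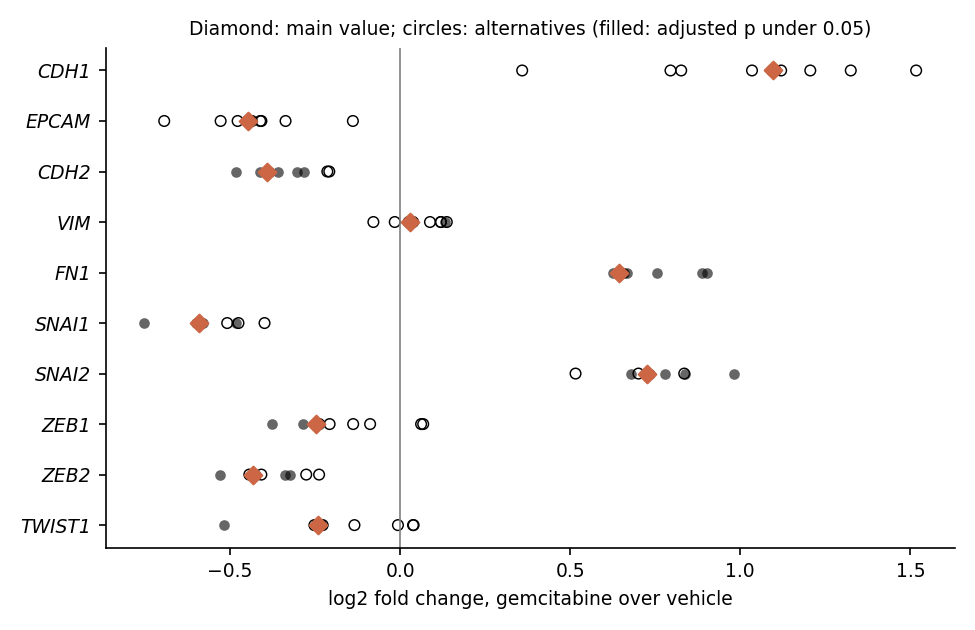
The log2 fold change of each gene in the main fit (orange diamond) and under the alternatives in scaling, filter, tool and libraries (circles, filled where the adjusted p was under 0.05). All circles of FN1 are filled, between 0.63 and 0.90, and those of VIM, ZEB1 and TWIST1 fall on both sides of 0.

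Of the epithelial surface genes neither passed the test. CDH1 (ENSG00000039068, chromosome 16, 68771195 to 68869440 on the plus strand of hg19) was covered by 4 and 7 fragments in vehicle and by 13 and 9 in gemcitabine. These counts lie only just above the floor of 3 fragments, and the gemcitabine libraries were the higher ones without overlap. The log2 fold change was 1.10 (SE 0.56, 95% interval -0.09 to 2.28, adjusted p = 0.134 by edgeR's quasi-likelihood test). At this depth a slight fall and a rise of several fold could not be told apart.
EPCAM (ENSG00000119888, chromosome 2, 47572297 to 47614740, plus strand) had 80 and 57 fragments in vehicle and 48 and 45 in gemcitabine. EPCAM was lower in both gemcitabine libraries, at 3.46 and 3.30 TMM-scaled CPM against 5.50 and 3.74, with the second vehicle library close to them. Its log2 fold change of -0.45 (SE 0.25, 95% interval -0.98 to 0.09) had an adjusted p of 0.173 in the same edgeR fit. Without the first vehicle library it was -0.14 and without the second -0.69. A fit with 1 library left out, here and below, takes the spread between libraries from the intact pair alone. Its p-values therefore depend on which group kept 2 libraries.

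Of the mesenchymal genes FN1 rose, CDH2 fell and VIM did not pass the test. FN1 (ENSG00000115414, chromosome 2, 216225163 to 216300796, minus strand), a fibril-forming glycoprotein of the matrix and a ligand of integrins, had 2575 and 2678 fragments in vehicle and 3774 and 3812 in gemcitabine. In TMM-scaled CPM these were 177 and 176 against 272 and 280, with each pair close together and the groups far apart. FN1 rose by 0.64 on the log2 scale (SE 0.065, adjusted p = 3.6e-06 by edgeR's quasi-likelihood test), a 1.56-fold rise. On the FPKM scale the same libraries stood at 46.8 and 45.2 against 90.1 and 82.0, a larger difference than in fragments. The ratio of CPM to FPKM was 3.63 and 3.76 in vehicle and 3.17 and 3.50 in gemcitabine, and why it differed was not tested.

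CDH2 (ENSG00000170558, chromosome 18, 25512843 to 25757910, minus strand), the N-cadherin of mesenchymal and neural cells, had 2196 and 2215 fragments in vehicle and 1469 and 1636 in gemcitabine. The TMM-scaled CPM of 151 and 145 in vehicle lay above the 106 and 120 in gemcitabine. Its log2 fold change was -0.39 (SE 0.074, adjusted p = 0.00075 by edgeR's quasi-likelihood test), a fall to 0.762 of the vehicle level, which is under the study's fold of 1.5. Among the 3 mesenchymal genes the cadherin and the matrix gene therefore moved in opposite directions.
VIM (ENSG00000026025, chromosome 10, 17270240 to 17279592, plus strand), the filament protein most used as a mesenchymal marker, had 10896 and 10621 fragments in vehicle and 9494 and 10781 in gemcitabine. Its TMM-scaled CPM of 750 and 697 in vehicle and 684 and 792 in gemcitabine overlapped, with both the lowest and the highest value in the gemcitabine group. The log2 fold change was 0.03 (SE 0.078, 95% interval -0.14 to 0.19, adjusted p = 0.803 in the edgeR fit). The counting is not stated to use strand, so reads of the overlapping antisense gene VIM-AS1 cannot be told apart from those of VIM.

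The SNAI factors changed in opposite directions. SNAI1 (ENSG00000124216, chromosome 20, 48599517 to 48605423, plus strand), the Snail repressor of CDH1, had 427 and 350 fragments in vehicle and 239 and 238 in gemcitabine. The TMM-scaled CPM was 29.4 and 23.0 in vehicle and 17.2 and 17.5 in gemcitabine, so the vehicle libraries differed from each other by more than the gemcitabine libraries did and yet lay above them. The log2 fold change was -0.59 (SE 0.12, adjusted p = 0.0015 by edgeR's quasi-likelihood test). Without the first vehicle library it was -0.40 with an adjusted p of 0.083 in edgeR, which ends the call.
SNAI2 (ENSG00000019549, chromosome 8, 49830157 to 49834299, minus strand), the Slug repressor, had 136 and 103 fragments in vehicle and 191 and 175 in gemcitabine. At 9.36 and 6.76 TMM-scaled CPM against 13.8 and 12.8, both gemcitabine libraries were the higher. SNAI2 rose by 0.73 on the log2 scale (SE 0.16, adjusted p = 0.0025 in the same fit), the largest rise of the 10 among those that passed. Without the second vehicle library it was 0.52 with an adjusted p of 0.094 in edgeR.

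The ratio of SNAI2 to SNAI1 in FPKM was 0.256 and 0.223 in the vehicle libraries and 0.656 and 0.579 in the gemcitabine libraries. SNAI1 thus stayed the more abundant of the pair in every library, by a smaller margin in the gemcitabine libraries, where the ratios did not overlap with vehicle. The ratio of CDH2 to CDH1 in FPKM was 154 and 188 in vehicle and 40.8 and 82.1 in gemcitabine, and that of VIM to EPCAM was 104 and 135 in vehicle and 155 and 227 in gemcitabine. These mesenchymal to epithelial ratios did not overlap between the groups, and they moved in opposite directions. The first rests on the few CDH1 fragments and the second on 45 to 80 EPCAM fragments. Of their genes CDH1, EPCAM and VIM did not pass the test. With 2 libraries against 2 an exact permutation test cannot reach a two-sided p under 0.05, so the ratios are given without a test.

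Of the ZEB factors ZEB2 fell and ZEB1 did not pass the test. ZEB2 (ENSG00000169554, chromosome 2, 145121931 to 145278624, minus strand), a zinc finger and homeodomain repressor, had 365 and 373 fragments in vehicle and 238 and 267 in gemcitabine. In TMM-scaled CPM the vehicle libraries stood together at 25.1 and 24.5, above 17.1 and 19.6 in gemcitabine. ZEB2 had a log2 fold change of -0.43 (SE 0.11, adjusted p = 0.0047 by edgeR's quasi-likelihood test). Leaving out a vehicle library kept its size but ended the call, at -0.41 (adjusted p = 0.088 in edgeR) without the first and -0.44 (0.072) without the second.
ZEB1 (ENSG00000148516, chromosome 10, 31607424 to 31818742, plus strand), the related repressor, had 626 and 800 fragments in vehicle and 544 and 564 in gemcitabine. The TMM-scaled CPM was 43.1 and 52.5 in vehicle and 39.2 and 41.4 in gemcitabine, lower in gemcitabine but with the first vehicle library nearer to these than to its replicate. ZEB1 had a log2 fold change of -0.25 (SE 0.096, 95% interval -0.45 to -0.04, adjusted p = 0.0556 in the edgeR fit), just short of the threshold. Without the second vehicle library it was -0.088, and without the first -0.38.

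On the FPKM scale ZEB1 showed no such order, with 7.67 and 10.9 in vehicle and 11.3 and 8.12 in gemcitabine. Its ratio of CPM to FPKM was 5.39 and 4.65 in vehicle and 3.64 and 5.23 in gemcitabine, lowest in the first gemcitabine library. The ratio of ZEB1 to ZEB2 in FPKM, at 1.15 and 1.65 in vehicle and 2.46 and 1.26 in gemcitabine, overlapped between the groups. ZEB1 and ZEB2 each have an overlapping antisense gene (ZEB1-AS1 and ZEB2-AS1), whose reads cannot be told apart from theirs.

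TWIST1 (ENSG00000122691, chromosome 7, 19060614 to 19157259, minus strand), the basic helix-loop-helix factor, had 254 and 269 fragments in vehicle and 170 and 238 in gemcitabine. The TMM-scaled CPM of the second gemcitabine library (17.5) was almost that of the vehicle libraries (17.5 and 17.7), and only the first gemcitabine library stood apart, at 12.2. For TWIST1 the log2 fold change was -0.24 (SE 0.14, 95% interval -0.55 to 0.07, adjusted p = 0.205 by edgeR's quasi-likelihood test), and it rested on which gemcitabine library was kept. In edgeR it was -0.0063 without the first and -0.52 without the second.

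The genes closest to each changed gene were sought over the 12845 tested genes that averaged 1 CPM or more, as the smallest distance in log2 TMM-scaled CPM over the 4 libraries, each gene centred on its own mean. For FN1 these were STARD10 and RAB3B, at distances of 0.025 and 0.028. For SNAI2 they were PHLDB3 and ZNF311 (0.073 and 0.074), for CDH2 UBTF and PARD3B (0.013 and 0.016), and for ZEB2 ISOC1 and BRD3 (0.015 and 0.016). For SNAI1 they were SMIM8 (0.051) and a gene given only as ENSG00000263053 (0.057). None of the 10 genes was among the 2 closest of another. With only 2 taken of 12845 genes, this cannot tell whether the 10 moved together. CDH1, under 1 CPM in every library, was not among the genes compared.

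The other genes of the same programme were read from hand-written lists. Of 28 mesenchymal genes 27 were tested, of which 15 rose and 3 fell (edgeR's quasi-likelihood test, adjusted p under 0.05), against 18.5% and 20% of all tested genes. Their median log2 fold change was 0.36, beside 0.0069 for all tested genes. Among those averaging 1 CPM or more, TNC (tenascin C, log2 fold change 1.27) and NT5E (the surface nucleotidase CD73, 1.25) rose. SPARC, with only 3 to 14 fragments in a library, had a log2 fold change of 1.79 and passed as well. NT5E had 99 and 102 fragments in vehicle and 217 and 226 in gemcitabine. TNC had 40 and 34 against 71 and 94 fragments, but on the FPKM scale its groups overlapped. FN1, which is no member of this list, moved in the direction of its majority, whereas CDH2 moved with the 3 that fell, CDH11 (a cadherin of mesenchymal cells, -0.40), FBN1 (fibrillin, -0.28) and WNT5A (a secreted ligand, -0.22), which are named after their values were seen. Among the collagens COL1A1 had 56723 to 62658 fragments in a library, whereas COL1A2 had 0 to 3.

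Of 34 epithelial junction and identity genes 30 were tested, of which 9 rose and 7 fell, against 18.5% and 20% of all tested genes. With library totals the split was 13 higher and 5 lower, so the balance of directions in this list depends on the scaling. The median log2 fold change was 0.17 (0.28 with library totals). Among genes averaging 1 CPM or more the largest changes were rises, of ELF3 (an epithelial ETS factor, log2 fold change 2.49), CLDN1 (a tight junction claudin, 1.31) and F11R (junctional adhesion molecule A, 1.26). ELF3 had 66 and 60 fragments in vehicle and 316 and 340 in gemcitabine. Among the 7 that fell were ESRP2 (an epithelial splicing regulator, -0.87) and DSP (the desmosomal linker desmoplakin, -0.54), both named after their values were seen. The 4 that were not tested for want of fragments were OCLN, CRB3, OVOL1 and RAB25, with at most 5 fragments in a library. CDH1 and EPCAM, with 4 to 80 fragments, thus stood in a cell that held DSP at 3267 to 5628 fragments and JUP (plakoglobin) at 3401 to 4666.

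Of 18 other transcription factors of the transition 16 were tested, of which 1 rose and 8 fell, against 18.5% and 20% of all tested genes. With library totals the split was 3 higher and 5 lower. The median log2 fold change was -0.19, beside -0.25 for the 10 genes. ETS1 rose (log2 fold change 0.67) and FOXQ1, a forkhead factor, fell (-0.66). FOXQ1 had 2770 and 2753 fragments in vehicle and 1567 and 1656 in gemcitabine. TWIST2, the close relative of TWIST1, was among those that fell, at 961 and 936 against 635 and 659 fragments (log2 fold change -0.44), and is named after its values were seen. The third SNAI gene, SNAI3, had 3 to 5 fragments in each library, and its log2 fold change of -0.08 did not pass.

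Of 26 cofactors and turnover genes of the SNAI and ZEB proteins 25 were tested, of which 3 rose and 9 fell, and the median of their log2 fold changes was -0.17. Over all tested genes 18.5% rose and 20% fell. Among those that passed and averaged 1 CPM or more the largest changes were falls, of FBXO11 (log2 fold change -0.61) and FBXO45 (-0.52), F-box proteins of ubiquitin ligases, and EHMT1 (-0.52), a histone H3 lysine methyltransferase. On the FPKM scale the FBXO11 groups overlapped, at 23.5 and 21.9 in vehicle and 18.1 and 24.1 in gemcitabine, and limma on log2(FPKM + 1) gave -0.11 (adjusted p = 0.691). Of the histone deacetylases that these repressors recruit, HDAC2 fell (-0.46) and HDAC1 rose (0.28), both named after their values were seen. CTBP1, the corepressor bound by the ZEB proteins, had 2981 and 3147 fragments in vehicle and 2744 and 2692 in gemcitabine and did not pass (log2 fold change -0.06).

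The counts of these lists fell when 1 vehicle library or the FPKM table was used. Without the second vehicle library, in edgeR, 10 mesenchymal genes rose and 0 fell, 5 epithelial genes rose and 3 fell, 1 other transcription factor rose and 3 fell, and 0 cofactors rose and 6 fell. Without the first vehicle library 12, 11, 3 and 6 genes of the same lists changed. With limma on log2(FPKM + 1) the numbers were 6, 4, 0 and 0, where 16, 18, 3 and 7 genes had an unadjusted p under 0.05. The 6 mesenchymal and the 4 epithelial genes that passed there were all higher in gemcitabine. The whole table was itself shifted upward in that limma fit, with a median of 0.085 on the log2 scale, beside 0.0069 in the main edgeR fit. How many genes of the whole table passed there, and in which direction, was not counted. The common direction of these list genes therefore stands without a background.

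**Figure D4:**
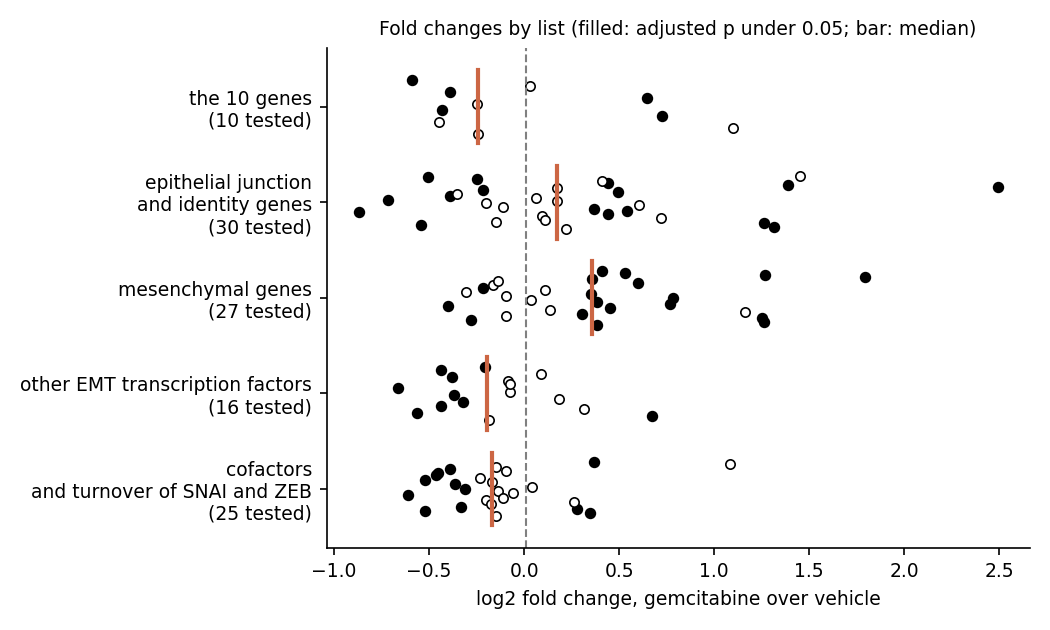
Fold changes of the 10 genes and of the tested genes of 4 hand-written lists on the log2 scale, gemcitabine over vehicle. Filled points passed an adjusted p of 0.05 in edgeR, orange bars are medians, and the dashed line is the median of all tested genes (0.0069). The median is 0.36 for the mesenchymal list and -0.19 for the other transcription factors, and ELF3 lies farthest to the right.

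Keratins and fibroblast markers moved beside these genes. KRT19 rose from 45 and 45 to 94 and 88 fragments (log2 fold change 1.13), KRT8 (0.29) and KRT18 (0.27) rose and KRT7 fell (-0.18). KRT8 and KRT18 have many processed copies in the genome, which makes their counts uncertain. Of the 4 fibroblast markers tested, 2 rose, FAP (163 and 150 against 263 and 296 fragments, 0.95) and LUM (67 and 71 against 116 and 102, 0.77), while DCN and COL3A1 did not pass. The summed CPM of the 5 was 2316 and 2327 in vehicle and 2447 and 2975 in gemcitabine, nearly all of it COL3A1. The endothelial marker VWF rose from 8 and 9 to 34 and 30 fragments (2.01), CDH5 had 0 to 3 in every library, and PECAM1 was not analysed here. The part of these in the changes of the 10 genes was not tested.

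DNaseI hypersensitivity was read as peaks that the authors called in 1 library a condition, with a score of 10 times the negative log10 of the p-value and a minimum of 50, so no difference between the conditions has a replicate check. Outside the mitochondrial genome the vehicle library had 9605 peaks and the gemcitabine library 10695. Within 5 kb of an annotated start there was a peak in vehicle for 1 of the 10 genes (VIM), against 24.6% of 18838 annotated genes, and in gemcitabine for 2 (CDH1 and ZEB1), against 28.3%. No such peak was shared by the conditions, and how many of all genes shared one was not counted. For 7 of the 10 genes, FN1, SNAI1 and SNAI2 among them, neither condition had a peak at that distance.

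The vehicle peak at VIM lay at chr10:17269903-17270834 with a score of 74.2, above 54.5% of the vehicle peaks. It covered the canonical start, with its centre 128 bases downstream, and a second vehicle peak lay 11.8 kb upstream with a score of 58.0. In the gemcitabine library the nearest peak was 202 kb from a VIM start, while the VIM fragment counts overlapped between the conditions. The 250 bases before that start, chr10:17269990-17270239 on the plus strand of GRCh37, lie wholly within the vehicle peak and are shown because VIM and ZEB1 were the only 2 of the 10 genes with a start that a peak covered.

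VIM, 250 bases before the start: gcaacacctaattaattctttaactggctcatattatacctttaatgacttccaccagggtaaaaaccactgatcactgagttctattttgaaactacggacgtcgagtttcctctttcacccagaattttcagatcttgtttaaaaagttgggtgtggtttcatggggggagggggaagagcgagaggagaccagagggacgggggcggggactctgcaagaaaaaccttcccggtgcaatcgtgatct

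The gemcitabine peak at ZEB1 lay at chr10:31607392-31608765 with a score of 51, close to the minimum and above only 3.32% of the gemcitabine peaks. Its centre was 67 bases upstream of the canonical start, whereas the nearest vehicle peak was 56.8 kb from a ZEB1 start. The ZEB1 fragment counts were not higher in gemcitabine. The gemcitabine peak near CDH1, at chr16:68765947-68766761, was centred 4.84 kb upstream of the start with a score of 84.3 and was only just within the distance of 5 kb, and the nearest vehicle peak was 178 kb away. Of the other genes EPCAM had a peak of each condition 33.9 and 33.7 kb downstream of its canonical start, which overlapped each other, with scores of 55.7 and 50.6. FN1 had a vehicle peak within the gene, 24.9 kb downstream of the start (79.5), and a gemcitabine peak 70.5 kb downstream (57.0). With peaks of a score of at least 100 none of the 10 genes had one within 5 kb, against 6.96% of genes in vehicle and 8.65% in gemcitabine.

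**Figure D5:**
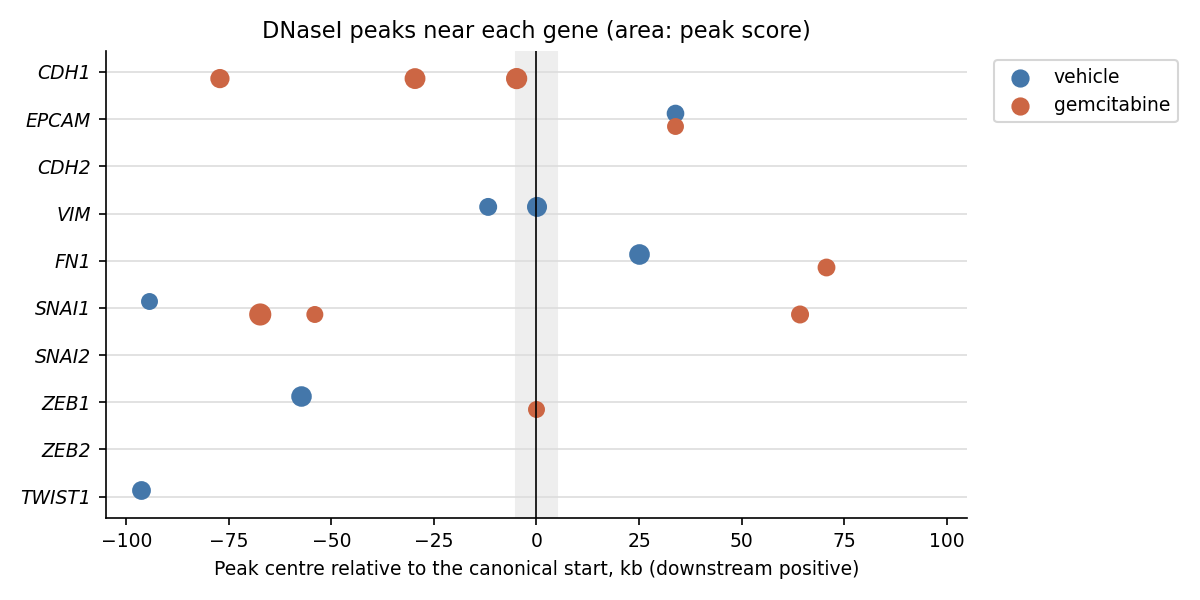
DNaseI peaks within 100 kb of the canonical start of each gene, by the distance of the peak centre from the start in kb (downstream positive). Blue points are vehicle and orange points gemcitabine peaks, their area follows the score, and the grey band marks 5 kb on either side. Within the band lie a vehicle peak at VIM and gemcitabine peaks at ZEB1 and CDH1.

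RefSeq promoter sequences (250 bases before to 50 after a start, GRCh38.p14) were at hand for 5 of the 10 genes, namely CDH2, VIM, FN1, ZEB1 and ZEB2, with 12 starts in all. All 12 matched the GRCh37 genome exactly and at 1 place. The E-box that SNAI and ZEB zinc fingers bind was searched as CACCTG and, for the other strand, as CAGGTG. It was found at 2 of the 12 starts, both of ZEB1, against 20.6% of 35116 promoters of the same length. By gene this is 1 of 5, against 24.1% of 27305 genes. A match is a description of the letters and not a measured binding site.

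At the canonical ZEB1 start the motif stood at 3 places, with its first base 242 and 85 bases before the start and 33 bases after it. At the start farthest upstream it stood once, 57 bases before the start. The stretches are shown because they are the only promoters of the 5 genes with the motif, which is in capitals. The stretch at the upstream start (chr10:31607096-31607345, plus strand of GRCh37) lies outside the gemcitabine peak. That at the canonical start (chr10:31607895-31608053), which ends where the leader of another transcript begins, and the second motif with its flanks (chr10:31608053-31608072) lie wholly within it.
ZEB1, 250 bases before the upstream start: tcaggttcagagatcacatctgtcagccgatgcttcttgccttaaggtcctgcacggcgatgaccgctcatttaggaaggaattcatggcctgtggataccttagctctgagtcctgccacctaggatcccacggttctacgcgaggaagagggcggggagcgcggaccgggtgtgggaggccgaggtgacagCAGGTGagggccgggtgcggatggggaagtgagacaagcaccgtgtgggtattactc
ZEB1, first motif before the canonical start: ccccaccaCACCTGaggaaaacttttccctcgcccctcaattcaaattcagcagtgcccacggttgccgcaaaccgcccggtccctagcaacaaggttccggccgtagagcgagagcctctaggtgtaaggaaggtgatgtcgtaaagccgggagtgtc
ZEB1, second motif before the canonical start: cgtaaacCAGGTGcggtggg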

How the data were processed

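RNA-seq was read for 2 vehicle and 2 gemcitabine libraries of cells labelled PANC1, and DNaseI-seq for 1 library of each. Reads were placed on hg19 by the authors with TopHat2 2.0.8 and assigned to protein-coding Gencode genes with Cuffdiff 2.0.2. The deposited table holds estimated counts of fragments per gene and library (91.0% whole within 0.005) and FPKM, which the authors took from Cuffdiff. Its 2 columns of scaled values were not used. The deposited peak lists give a score for each MACS peak called by the authors on hg19.

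Estimated counts were rounded and tested with edgeR 4.0.16 in R 4.3.3 (glmQLFit and glmQLFTest, TMM, a sum of at least 10 fragments, Benjamini-Hochberg). Cuffdiff was not run. Intervals are 95% and rest on a spread between libraries that edgeR moderates with that of all tested genes. They do not cover the spread of a gene's own libraries alone, and floors cover counting error only. Of the identifiers, 19619 were given current symbols. Cuffdiff marks 275 genes as failed in a library, which were kept. Starts came from a Gencode annotation lifted to GRCh37, the same build as hg19 outside the mitochondrial genome. The numbers of the libraries only tell them apart, since nothing ties the table's index to the labels' replicate numbers.

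The 10 genes, the lists and the tests were chosen with earlier results of these data known. Named were all 10 genes, of each list the 3 genes with the largest absolute log2 fold change among those past the test with a mean of at least 1 CPM, and the 2 genes nearest in pattern to each changed gene. Some genes that meet this rule are not reported here. Any further gene is a marker or was picked after its values were seen. The test was checked on simulated counts. Alternatives were DESeq2 1.42.0, other scalings and filters, limma 3.58.1 on log2(FPKM + 1) and log2(FPKM + 0.1), each library left out, a replicate block, and other rules for peaks and promoters.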

Additional observations from a re-analysis of the deposited data

How the results depend on the processing

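Of the 10 genes, FN1 passed under all 12 alternatives, with log2 fold changes of 0.63 to 0.90. The number changed was 5 with DESeq2, both other scalings and both other filters, and 3 to 7 with a library left out, the 3 without the second vehicle library. limma on FPKM passed only FN1, that is 1 of the 10 at either pseudocount, by the adjusted p alone and by all 4 criteria. With a library left out 2 to 3 genes met all 4 criteria. SNAI1 lost that call with library totals, with edgeR's own filter, and without the first library of either group. Without the first gemcitabine library VIM stood at 0.13. ZEB1 stood at -0.38 without the first vehicle library and at -0.29 without the second gemcitabine library, but at -0.088 without the second vehicle library. The direction turned for VIM to -0.016 without the second vehicle library and -0.079 without the second gemcitabine library. On log2(FPKM + 1) and log2(FPKM + 0.1) it turned for ZEB1 to 0.062 and 0.068, for TWIST1 to 0.038 and 0.040, and for TNC to -0.028 and -0.068. The cause was not tested. The share of all tested genes that passed was taken in the main fit only. Counts under the alternatives, here and for the lists, therefore stand without a background. Those with a library left out also depend on which group kept 2 libraries.

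On FPKM with limma 4 genes of the epithelial list changed at either pseudocount, 6 of the mesenchymal list, 0 and 1 of the other transcription factors (3 at an unadjusted p under 0.05 at either) and 0 of the cofactors (7 and 6 unadjusted). With a library left out the counts were 8 to 18, 10 to 21, 3 to 9 and 6 to 16, the lowest each without a vehicle library. Peaks within 5 kb were found at 3 of the 10 genes, at 2 within 1 kb and at 0 with a score of at least 100. Within 1 kb this was 1 gene in vehicle, against 21.1% of all genes, and 1 in gemcitabine, against 24.5%. The E-box stood in the promoter of 1 gene also within 1000 bases before to 200 after a start.

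The table's index as a replicate block gave 6 changed genes of the 10 in edgeR, adding ZEB1 (adjusted p = 0.029), and 15, 18, 9 and 13 for the 4 lists. Libraries of the same index did not deviate together when read over 12843 genes at once (correlation -0.051). Since nothing ties the index to the replicate numbers, this cannot tell whether libraries of the 2 groups were paired. Depth limits CDH1 above all, with 4 to 13 fragments.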
